A study of Mus musculus with 222 samples.

Results

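Single primordial germ cells (PGCs) of E12.5 ECKO mouse embryos were divided into 2 classes, those without Pou5f1 and those with it, chosen by the level of Pou5f1 alone. A cell was placed without Pou5f1 when the gene had under 10 CPM (a gene's counts scaled to the cell's total counts) and with Pou5f1 at 10 CPM or more. Of 96 ECKO cells in the count tables, 62 had at least 50000 counts and at least 1500 genes with a count and were kept, 26 without Pou5f1 and 36 with it. The study holds 127 kept E12.5 cells in all, of which the other 65 are Control cells. Its 22 bulk RNA libraries and 8 bisulfite libraries are not used here.

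The ECKO cells came from 2 XX embryos, called E277.3 and E298.4 after the names in the table headers, and from 2 XY embryos, E281.3 and E296.1. The genotype label of ECKO cells is Eed -/-, and that of Control cells is wild type. Control cells came from the XX embryos E277.5 and E301.1 and the XY embryos E279.1 and E280.1. All embryos descend from OG; Eed fl/fl females (OG is the Oct4-GFP reporter) crossed with males that carried BC (Blimp1-Cre) and 1 floxed Eed allele, on a C57BL/6;129S1/SvlmJ background. The sort took GFP-positive gonad cells, and each cell was made into a library with Smart-seq2. Because Cre is driven from Blimp1, deletion of Eed belongs to cells with a history of Blimp1 expression, and the gonad around them keeps its floxed allele. By this cross every embryo, Control embryos included, receives a floxed allele from its mother. The labels do not give the paternal Eed allele of Control embryos or say which of them carry Cre. The embryo is the replicate, with 4 ECKO embryos and 4 Control embryos.

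Pou5f1 encodes OCT4, a POU-domain transcription factor that binds octamer sequences, often together with SOX2, and holds pluripotent cells and early PGCs in their state. In the fetal gonad, PGCs of XX embryos express it until they enter meiosis. EED belongs to the core of PRC2, the Polycomb complex that places a repressive methyl mark on histone H3. The sort relied on a reporter under Pou5f1 regulatory sequence, so every cell without Pou5f1 transcript had been taken as positive for GFP, a protein that can outlast the transcript.

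The promoter of Pou5f1 is shown because its transcript made the classes, and that of Nanog because this gene, a known target of OCT4 and SOX2, is set beside it in the results. Both are RefSeq windows of 300 bases on GRCm38.p6, not the mm9 build of the counts, on the plus strand, at chr17:35505782-35506081 for Pou5f1 and chr6:122707239-122707538 for Nanog. Capitals mark each match, on either strand, of 4 motifs: GGGCGG (the GC box), AGGTCA (the core of a nuclear receptor site), TTTGCAT (octamer-like) and CATTGT (Sox-like). The Pou5f1 window holds the GC box and the nuclear receptor core, and the Nanog window the nuclear receptor core, the octamer-like letters and the Sox-like letters.
Pou5f1: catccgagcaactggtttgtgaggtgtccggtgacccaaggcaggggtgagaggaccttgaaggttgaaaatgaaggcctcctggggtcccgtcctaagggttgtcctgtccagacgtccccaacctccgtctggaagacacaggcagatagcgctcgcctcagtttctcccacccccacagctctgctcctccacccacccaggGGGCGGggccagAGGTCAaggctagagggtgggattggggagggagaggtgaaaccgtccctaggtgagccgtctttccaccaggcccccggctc
Nanog: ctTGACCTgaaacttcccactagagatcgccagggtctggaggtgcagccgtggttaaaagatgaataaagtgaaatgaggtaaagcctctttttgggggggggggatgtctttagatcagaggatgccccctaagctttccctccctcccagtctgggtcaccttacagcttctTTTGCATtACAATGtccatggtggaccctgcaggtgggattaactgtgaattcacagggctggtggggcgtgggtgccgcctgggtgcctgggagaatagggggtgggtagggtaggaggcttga
Of 32851 promoter windows of this length, 35.7% hold GGGCGG, 16.3% AGGTCA, 4.63% TTTGCAT and 12.6% CATTGT on either strand. In the Nanog window the octamer-like letters and the Sox-like letters, the second on the opposite strand, lie 1 base apart. The matches describe the letters only.

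Several libraries stand apart and bear on what follows. The library of cell 23 of XY ECKO embryo E281.3 and that of cell 7 of XY ECKO embryo E296.1 were near-identical, with a correlation of 0.993 over log2 CPM and a chi-square per degree of freedom of 3.04. A pair of XY Control E279.1 libraries, cells 15 and 23, correlated at 0.996 (3.07). The next most similar of the 8001 pairs of kept cells correlated at 0.844 (41.8), and the median pair at 0.719. The ECKO pair carries the labels of different embryos, so results are given with both of its libraries and without them. For the Control pair, cell 23 was left out in that check. Cell 8 of XX ECKO embryo E277.3, the one cell without Pou5f1 there, held 795849 counts on 2667 genes, with 5 of 15 germ cell markers at 10 CPM or more. Its level of the ribosomal RNA gene Rn45s was 67454 CPM, against a mean of 2415 CPM in the 12 cells with Pou5f1 of that embryo. Cell 14 of XX ECKO embryo E298.4, also without Pou5f1, had 4 of 15 germ cell markers and 1486 CPM of summed supporting cell markers, among them Wt1 at 406 CPM and Gata4 at 151 CPM. This cell goes against its label as a germ cell.

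Eed, the targeted gene, averaged 14.1 ± 9.38 CPM in ECKO cells without Pou5f1, 19.5 ± 11.7 CPM in ECKO cells with Pou5f1 and 46.2 ± 9.03 CPM in Control cells (SD over embryo means, n = 4 each). In cells without Pou5f1 its means were 0 CPM in E277.3, 18.8 in E298.4, 18.96 in E281.3 and 18.5 in E296.1. In cells with Pou5f1 they were 15.9, 35.8, 18.4 and 7.97 CPM in the same order, and in Control embryos 36.3 to 55.1 CPM. Both ECKO classes lay below each Control embryo. The counts do not separate the floxed part of the gene from the rest, and Eed missed the threshold against Control in cells without Pou5f1 (log2 fold change -1.87, SE 1.58, adjusted p = 1.0) and in cells with it (-1.56, SE 0.50, adjusted p = 0.313) by edgeR's quasi-likelihood test.

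Loss of Pou5f1 was tied to the embryo. Cells without Pou5f1 made up 11 of 13 cells in XX E298.4 (84.6%) and 13 of 18 in XY E281.3 (72.2%), but 1 of 13 in XX E277.3 (7.69%) and 1 of 18 in XY E296.1 (5.56%). The shares with Pou5f1 and their exact Clopper-Pearson 95% intervals were 15.4% (1.92 to 45.4) in E298.4, 27.8% (9.69 to 53.5) in E281.3, 92.3% (64.0 to 99.8) in E277.3 and 94.4% (72.7 to 99.9) in E296.1. Each sex thus had an embryo with few Pou5f1 cells and an embryo with mostly Pou5f1 cells at 10 CPM, and the intervals of E298.4 and E281.3 do not reach those of E277.3 and E296.1. The size of the difference depended on the threshold: cells with any Pou5f1 count were 53.8% in E298.4 (7 of 13) and 61.1% in E281.3 (11 of 18), against 92.3% in E277.3 (12 of 13) and 100% in E296.1. In Control embryos 2 of 16 cells of XX E301.1 were without Pou5f1, at 0 and 5.78 CPM, and no cell of the other 3 Control embryos was. The intervals cover the sampling of cells within an embryo only. They do not cover error in the Pou5f1 counts that placed a cell in its class. The libraries carry no molecular identifiers, so reads of 1 molecule can be counted more than once.

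Within the embryos, Pou5f1 levels of the classes were as follows, as a description of what made them. In E298.4 the 11 cells without Pou5f1 ranged from 0 to 2.75 CPM, with 6 at 0, and the 2 cells with it had 23.01 and 156 CPM. In E281.3 the 13 cells without it ranged from 0 to 9.40 CPM, with 7 at 0, and the 5 cells with it had 13.51, 16.1, 24.9, 38.5 and 94.2 CPM, the last being the near-identical library. The 2 single cells without Pou5f1 had 0 CPM in E277.3 and 2.31 CPM in E296.1, against 39.2 to 162 CPM in 12 cells and 13.3 to 255 CPM in 17 cells with Pou5f1. The gap around the threshold was wide in E298.4 and narrow in E281.3, where cells at 5.48 and 9.40 CPM (8 counts each) lay just outside it and a cell at 13.51 CPM (8 counts) just inside. Cells with Pou5f1 had a median of 86.0 CPM in ECKO embryos, against 231 CPM over all Control cells. Of the 26 cells without Pou5f1, 12 had at least 1 Pou5f1 count and 14 had none. For 11 of those 14, 3 counts would have been under 10 CPM (median 3.31 CPM), and for the other 3, all in E298.4, it was above 10 CPM and reached 42.7 CPM. In those 3 cells a level between 10 CPM and that limit was not detectable.

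**Figure D1:**
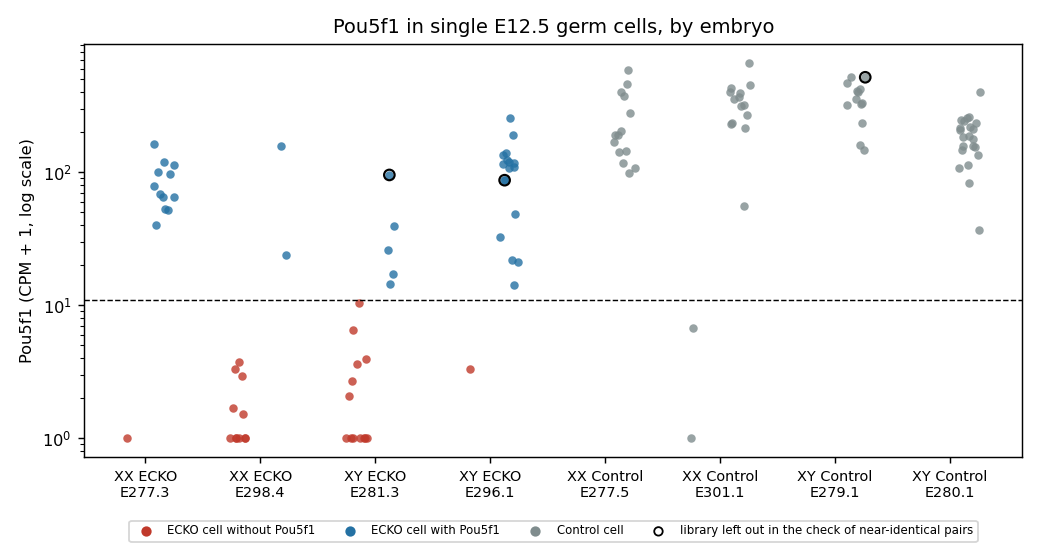
Pou5f1 in each kept cell (CPM + 1, log axis) by embryo, with cells without Pou5f1 left of cells with it in each column, ECKO embryos left of Control embryos. The dashed line is 10 CPM. Most ECKO cells of E298.4 and E281.3 lie below it (11 of 13 and 13 of 18), against 1 cell each in E277.3 and E296.1. Black rings mark the libraries left out in the check of near-identical pairs.

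The classes also differed in depth and complexity, and not in the same way in each embryo. In E298.4 cells without Pou5f1 had a median of 519485 counts and 5393 genes, against 2255358 counts and 9093 genes in the 2 cells with it. In E281.3 they had 1361337 counts and 7391 genes, against 934014 counts and 7545 genes. With every cell thinned to 50000 counts, the median number of genes was 3467 without Pou5f1 against 6696 with it in E298.4, 5008 against 4845 in E281.3, 1557 against 5822 in E277.3 and 4913 against 5261 in E296.1. At equal depth the 11 E298.4 cells without Pou5f1 (2598 to 5462 genes) did not overlap the 2 cells with it (6656 and 6736), while the classes overlapped in E281.3. The 2 Control cells without Pou5f1 had 3204 and 3411 genes. The part of complexity in the gene differences below was not tested.

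**Figure D2:**
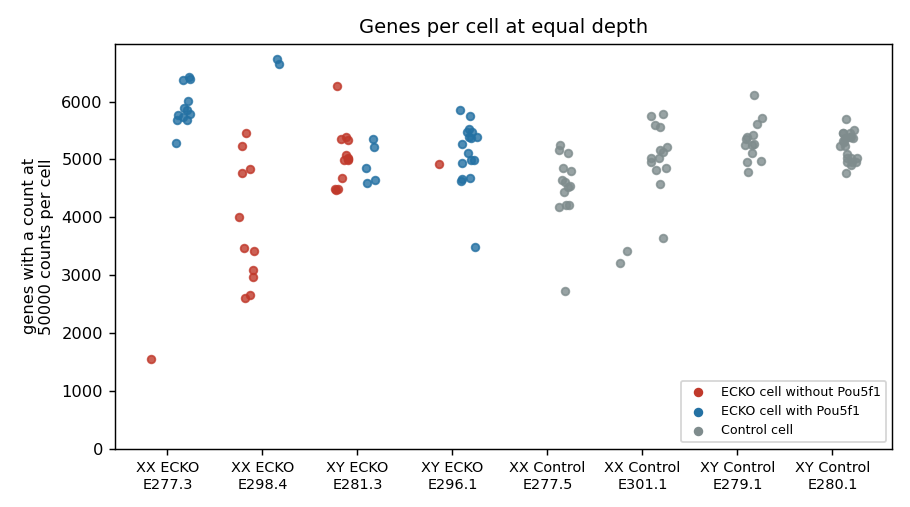
Genes with a count per cell after thinning to 50000 counts, by embryo, with ECKO cells without Pou5f1 (red) left of ECKO cells with it (blue) and Control cells in grey at the right. The E298.4 cells without Pou5f1 lie between 2598 and 5462 genes, below both cells with it, and the E277.3 cell without it is the lowest at 1557.

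Most cells without Pou5f1 held the germ cell markers. The median number of the 15 germ cell markers at 10 CPM or more was 11 without Pou5f1 against 14 with it in E298.4, 13 against 13 in E281.3 and 14 against 12 in E296.1, beside 12 to 13 in Control embryos, and 5 against 13 in E277.3. Summed germ cell marker levels averaged 2954 CPM without Pou5f1 against 3291 CPM with it in E298.4, and 4746 against 4584 CPM in E281.3 (4642 without the near-identical library). Dppa3, which protects germ cell and oocyte DNA methylation marks, reached 10 CPM in 10 of 11 and 13 of 13 cells without Pou5f1 of E298.4 and E281.3, and in 2 of 2 and 5 of 5 cells with it. The RNA-binding protein gene Dazl did so in 9 of 11 and 11 of 13 cells without Pou5f1, and in 2 of 2 and 4 of 5 with it. Markers of other cell types were not all low. Of the mesonephric epithelium markers, Krt18 averaged 322 CPM without Pou5f1 against 112 with it in E298.4 (173 without its highest cell). In E281.3 it averaged 109 against 180 CPM. Krt8 averaged 33.0 against 9.20 CPM in E298.4 and 50.1 against 104 CPM in E281.3. The median of summed supporting cell markers was 8.26 CPM without Pou5f1 against 72.5 with it in E298.4, and 38.3 against 27.3 in E281.3. The highest cell without Pou5f1 had 1486 CPM (cell 14 of E298.4) and the next 713 CPM (E281.3), while cells with Pou5f1 reached 620 CPM. Of 26 supporting markers, Sox9 averaged at most 0.436 CPM and Amh 0 CPM in the classes without Pou5f1, but others were higher. In E298.4 Wt1 averaged 38.5 CPM without Pou5f1 against 0.288 with it, and Gata4 19.96 against 8.66 CPM. With cell 14 left out, these means without Pou5f1 were 1.697 and 6.85 CPM. Wnt4 went the other way there, at 1.81 against 19.3 CPM. Of 7 tested supporting markers, 3 were lower and 3 higher without Pou5f1 in both E298.4 and E281.3. Blood cell markers had a median of 0 CPM in each class without Pou5f1, with 18 to 20 of 20 markers at 0. Interstitial markers reached 2616 CPM in cell 14 of E298.4 and at most 99.7 CPM in the other cells without Pou5f1. Endothelial markers had a median of 35.8 against 142 CPM in E298.4 and 78.8 against 96.6 CPM in E281.3. The part of other cell types in the gene differences was not tested beyond leaving out cell 14.

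**Figure D3:**
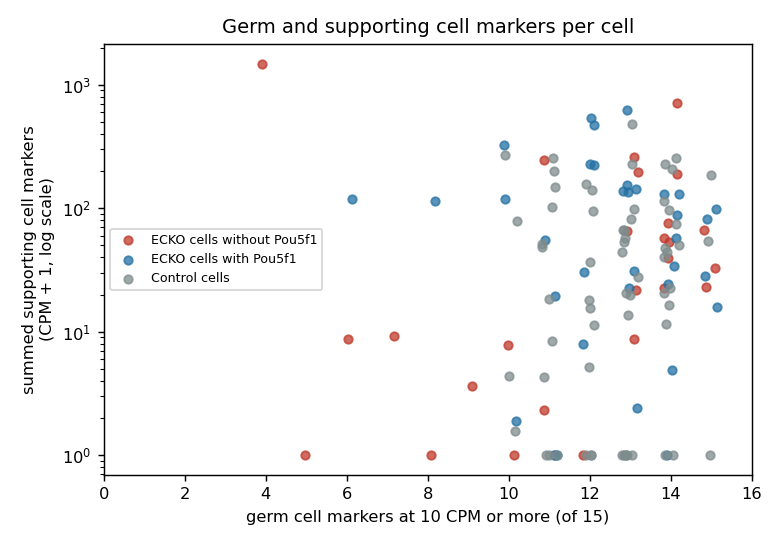
Number of germ cell markers at 10 CPM or more (of 15, horizontal, points spread slightly) against summed supporting cell markers (CPM + 1, log axis) in ECKO cells without Pou5f1, ECKO cells with Pou5f1 and Control cells. Most cells of all 3 kinds lie between 10 and 15 markers, and the red point at 4 markers and 1486 CPM is cell 14 of E298.4.

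No gene was called between ECKO cells without and with Pou5f1, with Pou5f1 itself left out of the calls. Counts were summed per embryo and class and fitted in edgeR with the embryo as a block, so each class was set against the other within its own embryo. The quasi-likelihood test called 0 of 10427 genes (0.0%) at an adjusted p under 0.05, and the smallest adjusted p was 0.995. At an unadjusted p under 0.05 there were 45 genes (0.432%), 12 higher (0.115%) and 33 lower (0.316%) without Pou5f1. DESeq2 called 15 genes, 11 higher and 4 lower. The median log2 fold change over all genes was -1.22, so single values below are read against that shift. It was -0.38 without cell 8 of E277.3 and cell 14 of E298.4. Cell 8 is the only cell without Pou5f1 in E277.3. Leaving it out takes that whole embryo out of the fit, its cells with Pou5f1 included. The names and directions that follow describe 4 embryos, of which 2 have a single cell without Pou5f1. In E298.4 and E281.3, which have at least 2 cells in each class, 26.7% of the tested genes had a lower mean without Pou5f1 in both embryos and 22.4% a higher one, or 23.7% and 23.1% without the near-identical libraries. The counts of list members below are read against these shares. Several of the means given below rested on 1 cell. With the highest cell of the higher class left out, the order of the classes turned in E298.4 for Nanog, Dppa5a, Dazl, Dph1, Dtx4, Clec11a, Dcaf17, Cldn12, Bid and Tcf19. In E281.3 it turned for Nanog, Sox2, Dppa3, Dazl, Ddx4, Kit, Sycp3, Akt1 and Gdf3. These lists leave out genes for which both classes were then at 0 CPM, so that the whole difference rested on 1 cell. Among the lower genes named below these were Rem2, Qprt, Khdc3 and Clec10a in E298.4. In E281.3 they were Rem2, Qprt, Fam214b, Dtx4 and Clec11a. Among the higher genes they were Cahm in both embryos and Ghdc in E281.3.

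Among the partners of OCT4, Sox2, a high-mobility-group factor that binds beside it, averaged 13.9 CPM without Pou5f1 against 73.9 CPM with it in E298.4. In E281.3 its means were 89.3 and 351 CPM, but the second was 49.4 CPM without the near-identical library. In the single-cell classes Sox2 was 0 CPM against 70.5 in E277.3 and 462 CPM against 237 in E296.1. Sox2 reached 10 CPM in 5 of 11 and 12 of 13 cells without Pou5f1 of E298.4 and E281.3, so cells without Pou5f1 often held Sox2. Nanog, a homeobox factor of the same network, averaged 6.82 CPM without Pou5f1 against 9.92 with it in E298.4, 8.68 against 26.4 in E281.3 (2.46 without the near-identical library), 3.77 against 24.6 in E277.3 and 71.7 against 70.9 in E296.1. The cell without Pou5f1 in E296.1 thus held Nanog and Sox2 at the level of its neighbours or above. Neither gene passed (edgeR, Nanog log2 fold change -1.21, SE 1.99, Sox2 -2.52, SE 2.05, adjusted p = 0.995 for both). The value of Nanog was 0.58 with the near-identical libraries, cell 14 of E298.4 and cell 8 of E277.3 left out. Without cell 8 that fit did not hold embryo E277.3. For both genes the lower E281.3 mean without Pou5f1 rested on the near-identical library.

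Of 37 pluripotency genes other than Pou5f1, 33 were tested, 0 were called, and 13 had a lower and 4 a higher mean without Pou5f1 in both E298.4 and E281.3 (9 lower and 4 higher without the near-identical libraries). The list's median log2 fold change was -1.13, beside -1.22 over all genes. Its members of smallest unadjusted p were Utf1 and Gdf3. Utf1, a chromatin-associated factor of pluripotent cells, averaged 142 CPM without Pou5f1 against 647 with it in E298.4, 1823 against 3222 in E281.3 (3778 without the near-identical library), 1.26 against 863 in E277.3 and 980 against 2983 in E296.1. The lower value was in the class without Pou5f1 in all 4 embryos, as it was for 16.96% of all tested genes. Gdf3, a TGF-beta family ligand of pluripotent cells, averaged 5.74 against 81.7 CPM in E298.4 and 40.8 against 45.5 CPM in E281.3. The means of Utf1 in Control embryos, 2816 to 5141 CPM, were above those of cells without Pou5f1 in each ECKO embryo.

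Early PGC and germ cell genes showed no common direction. Of 19 tested early PGC genes 8 were lower and 5 higher without Pou5f1 in both E298.4 and E281.3 (6 and 5 without the near-identical libraries), and of 33 tested germ cell identity genes 9 were lower and 10 higher (5 and 10). Both lists had 0 called genes, and their medians were -0.997 and -0.66 beside -1.22 over all genes. Dnd1, which protects germ cell mRNAs, averaged 82.3 CPM without Pou5f1 against 84.5 with it in E298.4 and 256 against 700.5 in E281.3. Dppa3 averaged 293 against 540 CPM in E298.4, 665 against 622 in E281.3 and 511 against 483 in E296.1, with 6.28 against 491 CPM in the E277.3 cell of few genes. Its log2 fold change was -0.997 (edgeR, SE 1.52, adjusted p = 0.995). Ddx4, the Vasa RNA helicase of germ cells, was lower without Pou5f1 in all 4 embryos, at 68.2 against 171 CPM in E298.4 and 34.9 against 38.2 CPM in E281.3, though there at 21.8 CPM with Pou5f1 without the near-identical library (edgeR, -2.02, SE 2.20, adjusted p = 0.995). Kit, the receptor for the germ cell survival factor KITL, averaged 26.6 against 213 CPM in E298.4 and 55.7 against 66.3 CPM in E281.3 (19.204 without the near-identical library). Dppa5a, a pluripotency and germ cell RNA-binding gene, averaged 798 against 1454 CPM in E298.4 and 4476 against 2931 CPM in E281.3. Dazl averaged 230 against 374 CPM in E298.4 and 225 against 210 CPM in E281.3.

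Stra8 was present in both classes of XX cells. Stra8, which starts meiosis in response to retinoic acid, averaged 250 CPM without Pou5f1 against 161 with it in XX E298.4 and 318 against 284 CPM in XX E277.3. In XY embryos it averaged 3.60 against 0.338 CPM in E281.3 and 0 against 45.1 CPM in E296.1. The last value rested on cell 20 of E296.1, which had 680 CPM and 6 of 15 germ cell markers at 10 CPM or more. Without that cell the mean was 5.46 CPM, and 13 of the other 16 cells were at 0. Stra8 reached 10 CPM in 10 of 11 cells without Pou5f1 and 2 of 2 cells with it in E298.4, and in 1 of 1 and 12 of 12 cells in E277.3. Its log2 fold change was 0.45 (edgeR, SE 2.09, adjusted p = 0.995). Sycp3, of the synaptonemal complex, averaged 53.9 against 16.3 CPM in E298.4 and 14.7 against 9.42 CPM in E281.3. In E298.4 a single cell without Pou5f1 (cell 4, with 70194 counts) had 356 CPM, and the mean was 23.7 CPM without it. In E281.3 the mean without Pou5f1 was 8.23 CPM without cell 8, which had 91.9 CPM, so the order of the Sycp3 means there turned on 1 cell. Of 32 tested meiosis genes 6 were lower and 7 higher without Pou5f1 in both of these embryos (4 and 7 without the near-identical libraries). None was called (median -1.04). Dnmt3l, a cofactor of male germ line DNA methylation, was too low to test and reached 10 CPM in 3 of 13 cells without Pou5f1 and 0 of 5 with it in E281.3, and in 0 of 1 and 2 of 17 cells in E296.1. Xist, the X-inactivation RNA, was also too low to test. It reached 10 CPM in 1 of 11 cells without Pou5f1 in E298.4, and the class mean of 40.3 CPM there was 0.422 CPM with cell 14 left out.

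**Figure D4:**
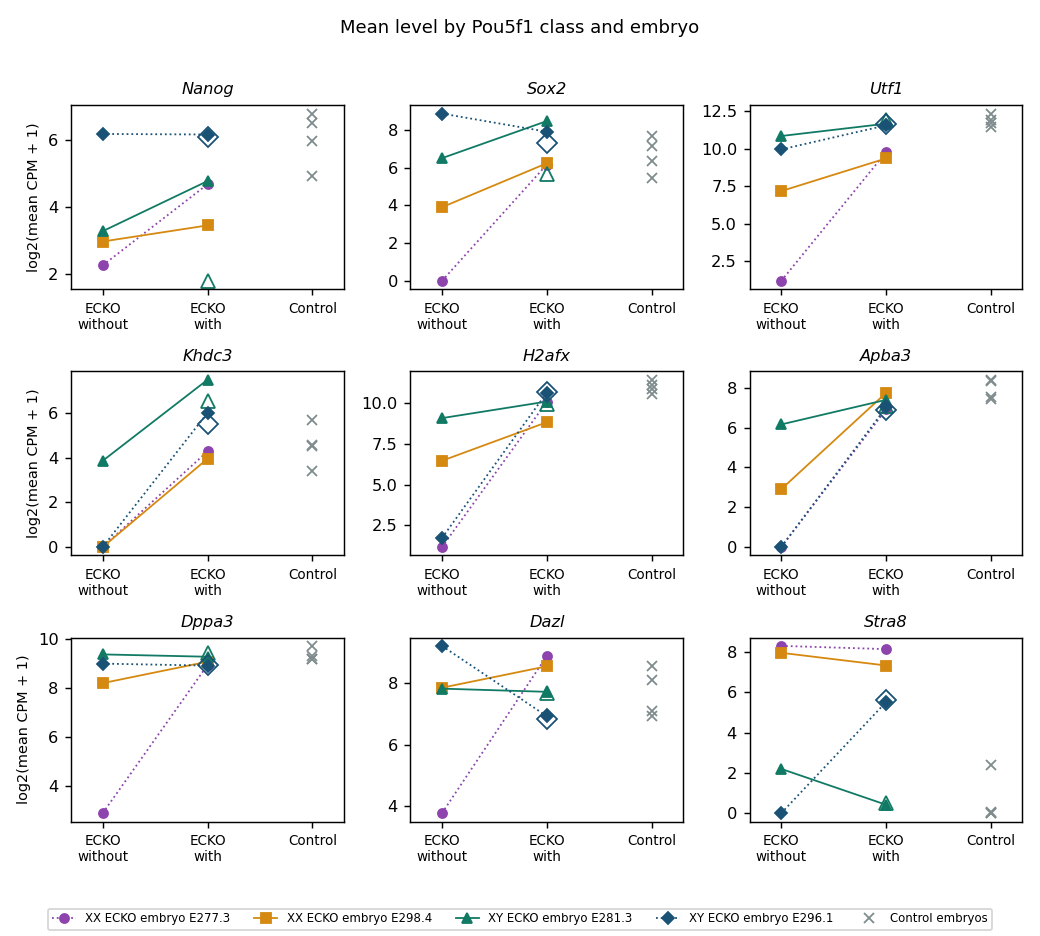
Mean level per class and embryo, log2(mean CPM + 1), for ECKO cells without Pou5f1 (left), ECKO cells with Pou5f1 (middle) and the 4 Control embryos (right). Lines join the classes of 1 embryo and are dotted where a class has 1 cell. Hollow symbols show the class with Pou5f1 without its near-identical library. The means of Khdc3, H2afx and Apba3 were lower without Pou5f1 in each of the 4 embryos, though none of the 3 genes was called, while those of Dppa3, Dazl and Stra8 were lower in some embryos and higher in others.

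The genes lower without Pou5f1 in all 4 embryos with the smallest unadjusted p, none of which passed, were Rem2, Qprt, Fam214b, Khdc3, Clec10a, Dtx4, Clec11a, H2afx, Apba3 and Dph1. H2afx, the histone variant of the DNA damage response, had the highest level. It averaged 86.7 CPM without Pou5f1 against 449 with it in E298.4, 535 against 1081 in E281.3 (959 without the near-identical library), 1.26 against 1069 in E277.3 and 2.31 against 1584 in E296.1. H2afx reached 10 CPM in 10 of 11 and 13 of 13 cells without Pou5f1 of E298.4 and E281.3, and its log2 fold change was -4.83 (edgeR, SE 2.09, adjusted p = 0.995). Khdc3, an oocyte and embryo factor of genome stability, averaged 0 CPM without Pou5f1 against 14.4 with it in E298.4, 13.4 against 177 in E281.3, 0 against 18.4 in E277.3 and 0 against 62.8 in E296.1. Without the near-identical libraries the means with Pou5f1 were 89.9 CPM in E281.3 and 43.7 in E296.1. Khdc3 reached 10 CPM in 4 of 13 cells without Pou5f1 in E281.3 and in none of the other embryos, against 4, 1, 4 and 7 cells with it in E277.3, E298.4, E281.3 and E296.1. In the fit it missed the threshold (-7.00, SE 2.79, adjusted p = 0.995), DESeq2 called it (adjusted p = 0.0367), and so did edgeR with E298.4 and E281.3 alone (-5.45, adjusted p = 0.0331). Both calls reuse the same counts and are not separate evidence. In E298.4 1 cell held all of the Khdc3. Apba3, a neuronal adaptor family member, averaged 6.49 against 214 CPM in E298.4 and 70.4 against 167 CPM in E281.3 (edgeR, -5.45, SE 2.39, adjusted p = 0.995, DESeq2 adjusted p = 0.0471). Dph1, of diphthamide synthesis on elongation factor 2, averaged 1.93 against 27.4 CPM and 5.32 against 60.6 CPM (edgeR, -5.31, SE 2.44, adjusted p = 0.995). Rem2 rested on the near-identical library in E281.3, where its mean with Pou5f1 was 26.3 CPM with that library and 0 CPM without it.

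A higher mean without Pou5f1 in all 4 embryos was seen for 1.21% of tested genes. Those of smallest unadjusted p, none of which passed, were Ghdc, Tef, Wdr60, Chd3, Cahm, Zfp827, Cep41, Dcaf17, P3h1 and Rnf168. Ghdc, with the smallest unadjusted p of them, averaged 2152 CPM in the single cell of E277.3 against 12.3 with Pou5f1 and 217 CPM in that of E296.1 against 8.95, but 0.294 CPM against 0 in E298.4 and 0.814 against 0 in E281.3 (edgeR, 6.91, SE 2.16, adjusted p = 0.995, DESeq2 adjusted p = 0.0139). Of these 10 genes, 8 had a mean in that E277.3 cell that stood apart from the other 3 embryos. P3h1, a collagen prolyl hydroxylase, averaged 57.8 CPM without Pou5f1 against 4.03 with it in E298.4, 19.4 against 5.92 in E281.3, 166 against 14.3 in E277.3 and 116 against 50.2 in E296.1 (edgeR, 3.15, SE 2.08, adjusted p = 0.995). Zfp827, a zinc finger gene, averaged 8.18 against 0 CPM in E298.4 and 9.28 against 0.457 CPM in E281.3 (edgeR, 4.004, SE 2.51, adjusted p = 0.995).

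With E298.4 and E281.3 alone, edgeR called 8 of 11108 genes, 7 higher without Pou5f1 and Khdc3 lower. These 7 were chosen after their values were seen. The histone gene Hist1h3c averaged 55.4 CPM without Pou5f1 against 12.8 with it in E298.4 and 65.8 against 0.214 in E281.3. The deubiquitinase gene Usp3 averaged 171 against 4.31 CPM and 39.4 against 7.12 CPM, and the spliceosome gene Snrnp35 410 against 8.05 CPM and 24.3 against 0.803 CPM. Tubb2a, Hist1h1d and Ramp2 averaged 0 CPM in the cells with Pou5f1 of both embryos, and Cldn12 reached 10 CPM in 1 of them. In E298.4 Cldn12 averaged 179 CPM without Pou5f1 against 44.0 with it, but 31.8 CPM without its highest cell. The Snrnp35 mean without Pou5f1 there was 81.7 CPM without its highest cell. Usp3 reached 10 CPM in 8 of 11 and 7 of 13 cells without Pou5f1, and Ramp2 in 1 cell of each embryo, which in E298.4 was cell 14. Histone genes of these clusters are near-identical copies, so their counts are uncertain.

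Other gene groups held no called gene. Of 34 tested proliferation genes, 10 were lower and 3 higher without Pou5f1 in both E298.4 and E281.3 (9 and 6 without the near-identical libraries). Aurkb, a mitotic kinase, averaged 24.4 CPM without Pou5f1 against 413 with it in E298.4, and 79.2 against 48.3 in E281.3. Ccna2, the cyclin of S phase and mitotic entry, averaged 123 against 1067 CPM in E298.4 and 229 against 317 CPM in E281.3. Of 9 tested genes of Kit signalling and survival, 6 were lower and 0 higher (5 and 0 without the near-identical libraries). Its BH3 member Bid averaged 11.1 against 79.5 CPM in E298.4 and 38.3 against 33.9 CPM in E281.3, and the kinase Akt1 40.2 against 196 CPM and 93.6 against 242 CPM (75.3 without the near-identical library). Of 26 tested p53 and apoptosis genes 4 were lower and 7 higher (4 and 6 without the near-identical libraries). Cdkn1a, the p53 target that stops the cell cycle, averaged 114 against 92.0 CPM in E298.4 and 441 against 203 CPM in E281.3. The 10 tested PRC2 genes had 1 lower and 2 higher (3 and 2 without the near-identical libraries). The methyltransferase gene Ezh2, chosen after its values were seen, had a higher mean without Pou5f1 in all 4 embryos, at 114 against 68.8 CPM in E298.4, 51.7 against 37.0 in E281.3, 290 against 44.6 in E277.3 and 125 against 47.2 in E296.1. The 20 tested developmental transcription factors, common targets of PRC2, had 9 lower and 5 higher (median -2.42), with the same counts without the near-identical libraries. The 32 tested imprinted genes had 6 lower and 9 higher (median -0.94), or 4 and 12 without these libraries. The 17 tested genes of male germ cell differentiation had 2 lower and 3 higher (median -1.20), or 1 and 3 without them. The 24 tested immediate early and stress genes had 4 lower and 6 higher (median -1.29), or 6 and 6 without the near-identical libraries.

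The 10 genes on each side of Pou5f1 on chromosome 17, in the order of the GRCm38.p6 gene table, were looked at as neighbours. Of the 20, 8 were tested and 4 had a lower mean without Pou5f1 in both E298.4 and E281.3, with and without the near-identical libraries. Over all tested genes the share was 26.7% with these libraries and 23.7% without them, and 8 genes are too few to tell the neighbours from that share. Tcf19, a growth-regulated factor next to Pou5f1, averaged 13.1 CPM without Pou5f1 against 16.3 with it in E298.4, 36.3 against 101 in E281.3 and 245 against 45.7 in E296.1. Cchcr1 averaged 3.13 against 62.8 CPM in E298.4 and 18.9 against 35.2 CPM in E281.3 (19.13 without the near-identical library). The share of counts from chromosome 17 had a median of 7.05% against 5.80% in E298.4 and 7.204% against 6.99% in E281.3, so it was higher without Pou5f1 in both.

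Each class was then set against the Control embryos, which both comparisons share. In cells without Pou5f1, edgeR called 0 of 10678 genes (0.0%), with 434 at an unadjusted p under 0.05 (4.06%; 1.48% higher, 2.58% lower), and DESeq2 called 169. With XY E296.1 left out edgeR called 3, with Control E279.1 left out 1 and with Control E280.1 left out 2. Stra8 averaged 143 ± 165 CPM against 1.08 ± 2.13 CPM in Control (log2 fold change 7.17, SE 1.92, adjusted p = 0.300), and Nanog 22.7 ± 32.7 CPM against 72.8 ± 34.9 CPM (-2.40, SE 1.76, adjusted p = 1.0). H2afx averaged 156 ± 255 CPM against 2047 ± 532 CPM (-3.69, SE 1.11, adjusted p = 0.462). Its embryo means did not overlap between the groups, which was a condition for naming a gene by smallest p here. The other genes named by smallest p, none of which passed, were Inf2, Arhgdig, Ak4, Clstn1 and Kif5c among those higher and Scgn, Ctf1, Cdsn and Pcyt1b among those lower. The kinesin gene Kif5c averaged 97.2 ± 168 CPM against 2.56 ± 1.01 CPM, with 349 CPM in the E277.3 cell of few genes, and the cytokine gene Ctf1 2.38 ± 4.77 CPM against 74.5 ± 21.1 CPM.

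In cells with Pou5f1, edgeR called 3 of 11565 genes (0.0259%), all higher than in Control, with 1047 at an unadjusted p under 0.05 (9.05%; 4.38% higher, 4.67% lower). Other settings called more genes and in both directions: DESeq2 called 452 (315 higher, 137 lower), edgeR with no filter on low counts 439 (297 higher, 142 lower), after thinning 57 (45 higher, 12 lower) and with any Pou5f1 count 22 (17 higher, 5 lower). Plin3, a lipid droplet coat gene, averaged 194 CPM in E277.3, 86.8 in E298.4, 57.5 in E281.3 and 40.0 in E296.1 (adjusted p = 0.00170), and had 2 counts in all Control cells. Without the near-identical libraries its means were 20.2 CPM in E281.3 and 28.4 in E296.1, and without cell 20 its mean in E296.1 was 22.9 CPM. Summed over cells the ratio was 4935 (counting interval 1366 to 40763). Prss16, a thymus serine protease gene, averaged 20.9, 32.2, 19.6 and 33.4 CPM in the same order, and Nkx2-5, a cardiac homeobox factor and 1 of 26 tested developmental transcription factors, 16.2, 5.23, 47.5 and 51.9 CPM (adjusted p = 0.0170 for both), each with 1 count in all Control cells. Single cells held much of these levels. In E296.1 the mean of Prss16 was 11.8 CPM without cell 20 (378 CPM) and that of Nkx2-5 29.3 CPM without cell 14 (413 CPM). In E281.3 cell 22 held all of the Prss16 counts (98.0 CPM) and Nkx2-5 averaged 27.7 CPM without its highest cell. In E277.3 Nkx2-5 averaged 5.19 CPM without cell 23, and in E298.4 1 of the 2 cells had it. Without cells 14 and 20 of E296.1 edgeR called 4 genes, and both passed (adjusted p = 0.0374 for both). Summed over all cells with Pou5f1, cells 14 and 20 of E296.1 included, the ratio was 2186 (391.8 to 86424) for Prss16. For Nkx2-5 it was 2796 (501 to 110488). The counting intervals of these ratios and that of Plin3 are over summed reads and cover no spread between cells or embryos. In cells without Pou5f1, Plin3 averaged 59.4 CPM in E298.4, 1.60 in E281.3 and 0 in E277.3 and E296.1. Prss16 averaged 26.5, 0.301 and 0 CPM there, all of it from 1 cell in E298.4 and 1 in E281.3, and Nkx2-5 5.73, 8.39 and 0 CPM. Against Control, Stra8 averaged 123 ± 127 CPM against 1.08 ± 2.13 CPM (7.04, SE 1.56, adjusted p = 0.126) and Nanog 32.9 ± 26.3 against 72.8 ± 34.9 CPM (-1.31, SE 0.64, adjusted p = 0.595). Genes named by smallest p that missed the threshold were Cd63 and P3h4 among those higher, and Lef1, Mybl2, Isl2, Plcd1 and Jak3 among those lower. Cd63, a tetraspanin of endosomes, averaged 133 ± 35.7 CPM against 5.66 ± 5.35 CPM, and the Wnt effector Lef1 18.7 ± 6.70 CPM against 110.1 ± 38.7 CPM. With E277.3 left out 1 gene was called, with E281.3 left out 1, with E298.4 or Control E280.1 left out 2, and with E296.1 left out 3, of which 1 was higher and 2 were lower. Among 34 tested pluripotency genes 0 were called, and 1 had a higher and 16 a lower level at an unadjusted p under 0.05, with a median log2 fold change of -0.95 beside -0.01 over all genes.

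The class effect was also compared between XX and XY embryos with an interaction term. Of 10427 genes 0 were called (0.0%) and 14 had an unadjusted p under 0.05 (0.134%; 0.125% higher, 0.00959% lower), while DESeq2 called 25. Each sex has 1 embryo with a single cell without Pou5f1. Leaving out cell 8 of E277.3, or any ECKO embryo, leaves 1 embryo of a sex in the fit. The number of genes called varied between those fits, and no result is read from it.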

How the data were processed

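The values are counts per gene for single E12.5 cells, deposited by the authors as 1 table of XX and 1 of XY cells, with 24391 gene symbols each. The submitters' processing notes name HISAT2, edgeR and mm9, without versions. The counting program, annotation and strand: not given in the sources used here. Without strand, a gene and its antisense partner cannot be told apart. Every cell column was matched to a group by sex and genotype in its header, and the header also gave the embryo. No doublet caller was run, and no label speaks of doublets.

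Kept cells had at least 50000 counts and 1500 genes. Counts were summed per embryo and class and tested with edgeR 4.0.16 (R 4.3.3) by the quasi-likelihood test, with filterByExpr, TMM scaling and Benjamini-Hochberg adjustment over all genes tested, at 0.05. Both classes of an embryo come from the same animal, so the embryo was a block. An embryo entered that fit only with both classes, so leaving out cell 8 of E277.3 left out that embryo. Comparisons with Control had sex as a covariate. Pou5f1 was left out of the calls. An exact sign-flip test over 4 embryos cannot go below 0.125 and was not used for single values. DESeq2 1.42.0 and limma 3.58.1 (pseudocount of 1 CPM) served as alternatives, beside other scaling, filters, Pou5f1 thresholds of 5 and 20 CPM or any count, thinning to 50000 counts and leaving out each embryo. The alternatives without near-identical libraries, without cell 14 of E298.4, without cell 8 of E277.3, without cells 14 and 20 of E296.1 and without the highest cell of a class were chosen after seeing the data. The fit was also run on counts simulated with known changes, as a check of direction. Their spread was set in advance and not taken from these data. The check does not say how large a change could be found here.

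The Pou5f1 split, the gene lists and the tests were chosen with earlier results of these data known. Genes named were a fixed set, called genes, and, where few were called, those of smallest p. Those of smallest p had the same direction in all embryos between the ECKO classes, or no overlap of embryo means against Control. They also had 5 CPM or more on average in the class or group where the gene was higher. The sources used here do not say what the embryo names stand for. ECKO E277.3 and Control E277.5 share the first part of theirs, and whether any embryos shared a litter is not given.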

Additional observations from a re-analysis of the deposited data

Results flagged for a closer look

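Of 109 groups of 4 embryo means looked at, 33 had an embryo that stood apart from the other 3. Chance flags about 1 in 20 only where the 4 values are normally distributed and equally precise. Some of these means rested on 1 cell or on few counts, and many of the genes were chosen from the same data. No excess over chance is therefore read from the count. All values are mean CPM. In the single E277.3 cell without Pou5f1, the cell of few genes, Ghdc was at 2152, Tef at 2982, Wdr60 at 906, Chd3 at 1431, Cahm at 105.5, Cep41 at 419.7, Dcaf17 at 2507 and Rnf168 at 1415, each the highest, and Eed at 0, the lowest. In the single E296.1 cell without Pou5f1 Nanog was the highest at 71.7.

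In E298.4 cells without Pou5f1, Xist was at 40.3, Plin3 at 59.4, Prss16 at 26.5, Fam214b at 0.0464, Dtx4 at 1.60 and Clec11a at 0.175. In E281.3 cells without Pou5f1, Dnmt3l was at 4.56, Khdc3 at 13.4, H2afx at 535 and Apba3 at 70.4. Among cells with Pou5f1, E296.1 stood apart for Xist at 2.63 and Cahm at 2.27, and E281.3 for Clec10a at 22.9.

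Among Control embryos, E280.1 stood apart for Dppa3 at 847 and Cdkn1a at 393, E277.5 for Stra8 at 4.27, Xist at 0.262 and Plin3 at 0.0896, E301.1 for Prss16 at 0.0421 and Qprt at 1.52, and E279.1 for Nkx2-5 at 0.160, Cep41 at 35.3 and Dtx4 at 2.90.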

How the results depend on the processing

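The comparison of ECKO cells without and with Pou5f1 had 0 calls, and 15 with DESeq2, 8 with E298.4 and E281.3 alone and 1 with limma. The embryo pairs the classes, and with no replicate block 1 gene was called (Als2cl). Cells without Pou5f1 against Control had 0 calls, and 19 with RLE scaling, 169 with DESeq2, 14 with no filter, 2 at a threshold of 20 CPM, 4 with any Pou5f1 count, and 0 to 3 with an embryo left out. Cells with Pou5f1 against Control had 3 calls, and 14 with RLE scaling, 452 with DESeq2, 439 with no filter, 22 with any count, 57 after thinning, and 1 to 4 with an embryo left out. The difference between XX and XY had 0 calls, and 25 with DESeq2, 42 with cells of at least 100000 counts and 3000 genes, 71 without cells 8 and 14, 38 when the near-identical libraries were also left out, and 0 to 1920 with an embryo left out. The share of cells with Pou5f1 was 100% in E277.3 without cell 8, and with any Pou5f1 count it was 53.8% in E298.4, 61.1% in E281.3 and 100% in E296.1. For single genes without against with Pou5f1, fits without cell 8 do not hold embryo E277.3. The log2 fold change of Nanog was 0.58 without the near-identical libraries and cells 8 and 14. That of Dppa3 was 0.024 without cells 8 and 14, 0.034 when the near-identical libraries were also left out and 0.018 with E298.4 and E281.3 alone. That of Stra8 was -0.37 after thinning, -0.81 with no replicate block, -0.021 with limma, and -0.75 to 1.60 with an embryo left out. Of the 8 fits with an embryo left out, Prss16 missed the threshold in 7 and Nkx2-5 in 6. Of the other gene values, 205 without against with Pou5f1, 76 without Pou5f1 against Control and 109 with Pou5f1 against Control kept direction and side of the threshold. The cause of these changes was not tested. No paired analysis was possible with Control because the Control and ECKO embryos are different animals and 1 ECKO and 1 Control embryo (E277.3 and E277.5) share the first part of their names, fewer than 2 pairs. Leaving out the cell whose genotype label goes against its title was not run, since titles could not be matched to columns. Depth limits the class call in 3 ECKO cells without Pou5f1, all of E298.4, in which 3 counts exceed 10 CPM.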
